A study of Mus musculus with 8 samples.

Results

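The histone genes measured here were those whose platform or current symbol begins with a histone prefix (Hist1h to Hist4h, H1f, H2ac, H2bc, H3c, H4c, H2af, H2az, H2ax, H3f3 or macroH2a). There were 66 such probes, of 59 genes, among the 25697 probes, naming 16593 genes, of an Illumina bead array. Of these, 58 probes of 53 genes were detected on both arrays of at least 1 group and were tested. The cells were λ820, a mouse lymphoma line driven by Myc, grown in RPMI medium with fetal bovine serum. The 4 groups were exposed for 24 h to DMSO (the solvent), to 10 µM RVX2135 (an inhibitor of BET bromodomain proteins, which read acetylated histones), to 10 µM VE-821 (an inhibitor of the replication stress kinase ATR) or to both drugs at these doses. Each group had 2 arrays, and the series addresses whether such drugs act together on lymphoma cells.

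Histones package DNA into nucleosomes. Core histones H2A, H2B, H3 and H4 form the spool and linker histone H1 binds where DNA enters and leaves it. The genes of the replication-dependent kind lie in clusters, are transcribed mainly during DNA synthesis, and give mRNAs that end in a stem-loop in place of a poly(A) tail. Replacement variants, such as the products of H3f3a, H3f3b and H2az1, are encoded by single genes with polyadenylated mRNAs and are made outside DNA synthesis as well. H2ax, Macroh2a1 and H1f10 were grouped with them here. Genes H2ac1, H2bc1, H1f6, H1f7 and H1f8 encode variants known from germ cells.

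Between 11012 and 11478 probes were detected per array, and replicate arrays correlated at 0.994 to 0.996. Nothing in the labels says that replicates came from separate cultures, and the p-values therefore reflect only array-to-array spread, possibly technical. Of 9 B lineage marker genes with a probe, 6 were detected on both DMSO arrays, among them Cd79a, Cd79b and Ebf1. Pax5 and Ms4a1 of the same list were detected on 0 arrays and Vpreb1 on 2. The summed intensity of the list was 8323 to 9765 with DMSO, 3591 to 4178 with RVX2135, 3539 to 4164 with VE-821 and 630 to 737 with both drugs. Its part in the histone results was not tested. Lists of T and NK, myeloid, erythroid and platelet, and stromal and endothelial markers summed to at most 44.8 on any array, with Cd4, Cd8a, Cd14 and Alas2 detected on none. Of the 10 T and NK genes with a probe, 3 were detected on both DMSO arrays and 0 on both arrays of any other group, and 1 probe of Acta2 was detected on 7 arrays and Klf1 on 5. The arrays measured RNA of whole cultures, so fewer cells at a stage of the cycle and less RNA per cell cannot be told apart.

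Promoter sequences from RefSeq (build GRCm38.p6, 250 bases before to 50 bases after each gene's start) matched 48 of the 53 tested genes, of which 38 lie on chromosome 13 and 7 on chromosome 3. The 150 bases before the start are printed 5′ to 3′ on the gene's strand for 4 genes that the results turn on. H4c18 showed the largest rise of any member, H1f2 rose less with both drugs than the sum of the single drugs, and H2bc8 and H2bc7 are neighbours of H2A genes on the other strand, with contrasting behaviour of the H2A partner. Capitals mark matches, on either strand, to the CCAAT box (CCAAT), the TATA box (TATAAA), the octamer known from H2B promoters (ATTTGCAT) and the H1 box known from H1 promoters (AAACACA).
H4c18, chr13:21832198-21832347, minus strand: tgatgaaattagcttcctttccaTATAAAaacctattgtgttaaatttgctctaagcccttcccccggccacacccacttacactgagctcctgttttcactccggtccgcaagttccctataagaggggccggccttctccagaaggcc
H1f2, chr13:23738657-23738806, plus strand: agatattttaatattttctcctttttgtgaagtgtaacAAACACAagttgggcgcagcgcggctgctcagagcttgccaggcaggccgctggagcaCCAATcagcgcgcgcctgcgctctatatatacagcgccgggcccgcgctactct
H2bc8, chr13:23571250-23571399, plus strand: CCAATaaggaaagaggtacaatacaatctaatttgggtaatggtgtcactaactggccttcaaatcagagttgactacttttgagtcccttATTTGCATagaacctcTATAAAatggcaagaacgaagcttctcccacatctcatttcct
H2bc7, chr13:23574208-23574357, minus strand: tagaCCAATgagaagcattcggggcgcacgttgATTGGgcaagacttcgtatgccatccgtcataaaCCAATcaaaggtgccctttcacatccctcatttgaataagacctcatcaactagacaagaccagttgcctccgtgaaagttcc

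Over the whole windows, CCAAT was present in 13 of 13 H2A, 9 of 9 H2B, 7 of 7 H3 and 3 of 3 H1 promoters, and in 2 of 9 H4 promoters, against 37.41% of all 32851 promoters in the table. TATAAA was present in 25 of the 41 promoters of replication-dependent genes and in 13.62% of all promoters. The octamer was present in 5 of 9 H2B and 5 of 13 H2A promoters, in 0 of 3 H1, 0 of 7 H3 and 0 of 9 H4 promoters, and in 1.74% of all promoters. Windows of neighbouring H2A and H2B genes on opposite strands overlap, so the same bases can count in both classes. The octamers of H2ac8 and H2bc8 are the same bases, as are those of H2ac12 and H2bc12. The H1 box was present in 2 of 3 H1 promoters and in 7.18% of all. No match of one motif overlapped a match of another in the bases before the start of the histone genes. These matches describe the letters of the windows, and a match is not shown to be a site.

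With both drugs, every tested probe of the replication-dependent H1, H2B, H3 and H4 genes rose, while H2A genes and replacement variants were divided. Against DMSO, 44 of the 58 tested probes rose and 7 fell, 7 had no call, and the median log2 change was 2.88. Leaving out H2ac1 and H2bc1, which passed the detection filter only through the combination, gave 42 rises and 7 falls among 56 probes (median 3.09). Over all tested probes, 28.6% were called higher and 29.9% lower, with a median of -0.01. A called rise of at least 2-fold was seen for 41 of the 58, against 850 of all 11761 tested probes. RVX2135 alone raised 42 and lowered 4 (median 1.27), against 14.0% higher and 14.2% lower over all probes. VE-821 alone raised 36 and lowered 4 (median 0.98), against 10.4% and 10.8%. Calls rest on limma's moderated test with Benjamini-Hochberg adjustment over all tested probes at 0.05, and every value has n = 2 arrays per group. The 3 comparisons share their DMSO arrays. With median scaling in place of quantile normalization the split over all probes moved to 794 higher and 2321 lower with RVX2135, 792 and 1429 with VE-821, and 2044 and 4638 with both drugs, and the histone probes gave 41 and 4, 35 and 4, and 43 and 4. Near-identical histone genes may share the signal of a probe, since probe sequences were not used here. How RNA was primed for labelling is not given. Whether the signals reflect the stem-loop mRNAs or only polyadenylated forms of these genes is therefore not known.

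**Figure D1:**
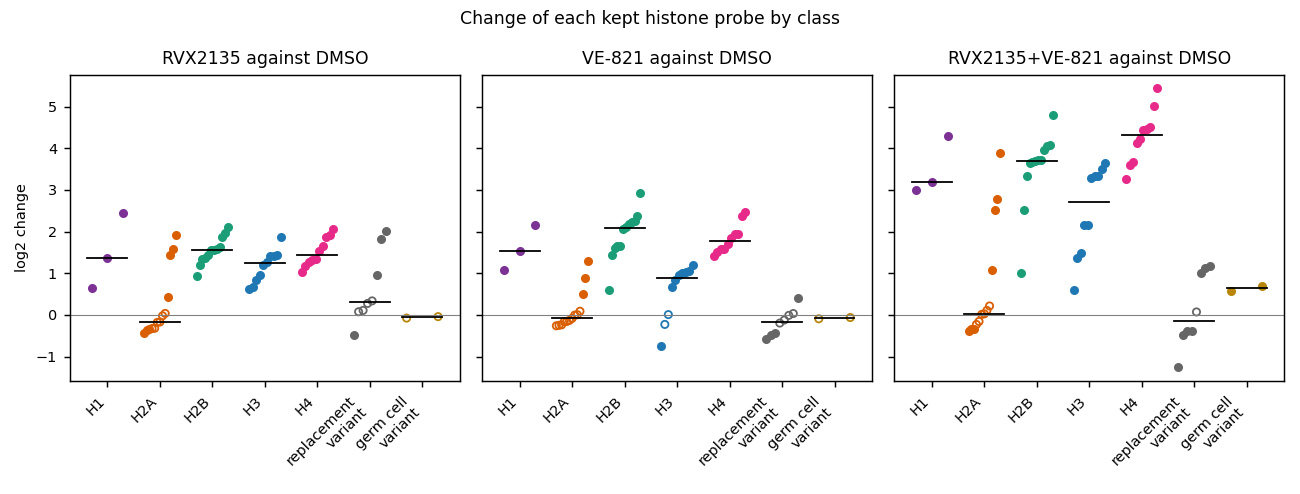
Log2 change of each of the 58 tested histone probes against DMSO, by class, for RVX2135, VE-821 and both drugs. Each point is a probe (filled where called at adjusted p under 0.05, open otherwise) and the black line is the class median. With both drugs the H1, H2B, H3 and H4 points are all filled and above 0, and the H2A points split into 4 that rose and 9 between -0.39 and 0.22.

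H4 had the highest class median with both drugs. All 10 H4 probes rose with each treatment, by a median of 1.44 with RVX2135, 1.77 with VE-821 and 4.33 with both, where the range was 3.26 to 5.44. The normalised log2 intensity of H4c18 was 6.80 and 7.24 with DMSO, 9.06 and 9.11 with RVX2135, 9.46 and 9.52 with VE-821, and 12.49 and 12.43 with both drugs. The 4 groups did not overlap, and the combination exceeded DMSO by 5.44 (SE 0.14, limma adjusted p = 1.68e-10), or 43.3-fold. H4c12 measured 7.55 and 7.72 with DMSO, 9.43 and 9.58 with RVX2135, 9.88 and 10.14 with VE-821, and 12.70 and 12.60 with both. H4c11 measured 7.99 and 8.29, then 9.65 and 9.70, then 10.01 and 10.14, then 12.67 and 12.65 in the same order of groups. Both followed the order of H4c18, with DMSO lowest, the single drugs in between and the combination highest, and rose by 5.02 (SE 0.12) and 4.52 (SE 0.12) with both drugs. H4c14, which rose least of the class, measured 5.96 and 6.29 with DMSO, 7.20 and 7.11 with RVX2135, 7.77 and 7.33 with VE-821, and 9.43 and 9.34 with both. Its change of 3.26 (SE 0.15, limma adjusted p = 1.34e-08) still placed the combination arrays above every other array.

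**Figure D2:**
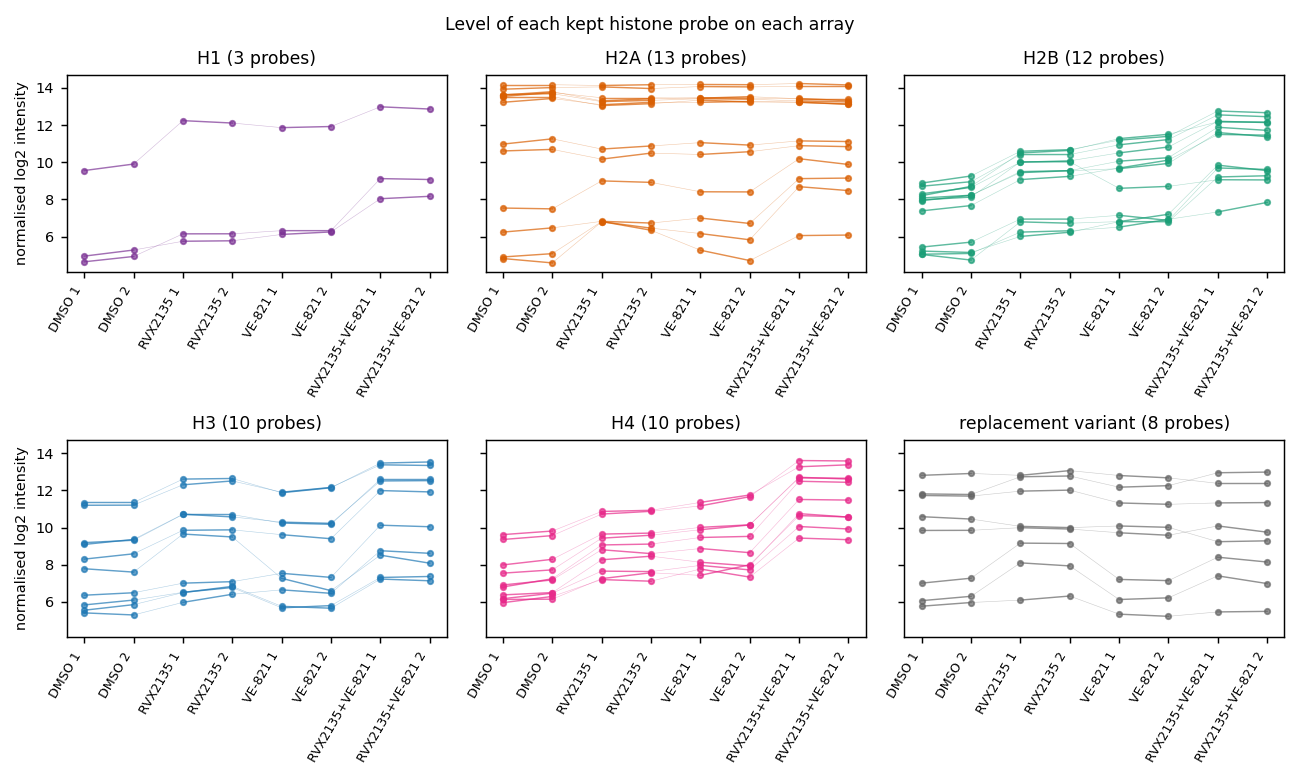
Normalised log2 intensity of each tested histone probe on each of the 8 arrays, by class. Each line is a probe, points are arrays, and heavier segments join the 2 arrays of a group. The H4 lines and all H2B lines but 1, a probe of H2bc18, climb from DMSO to the single drugs and again to the combination, and the upper H2A lines lie between 13.05 and 14.23 on every array.

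H3 rose in all 10 tested probes with both drugs (median 2.72, range 0.61 to 3.66). H3c14 (probe ILMN_3040069) measured 6.36 and 6.49 with DMSO, 7.01 and 7.09 with RVX2135, 7.54 and 7.32 with VE-821, and 10.12 and 10.04 with both, a rise of 3.66 (SE 0.11, limma adjusted p = 7.38e-10). A second H3c14 probe rose by 2.15 with both drugs, a gap of over 1 between probes of the gene. H3c1 measured 8.30 and 8.59 with DMSO, 9.85 and 9.87 with RVX2135, 9.61 and 9.40 with VE-821, and 11.99 and 11.91 with both. H3c4 measured 9.19 and 9.32, 10.70 and 10.70, 10.24 and 10.17, and 12.59 and 12.59 in that order. For H3c1 and H3c4 the RVX2135 arrays lay above the VE-821 arrays, although the direct difference was called for H3c4 (-0.49, SE 0.10, limma adjusted p = 0.00481) and not for H3c1 (-0.36, adjusted p = 0.0572).

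H3c7 stood apart from the other H3 genes. It measured 7.78 and 7.60 with DMSO, 9.65 and 9.49 with RVX2135, 7.27 and 6.60 with VE-821, and 8.51 and 8.08 with both drugs. It rose with RVX2135 (1.88, SE 0.20, limma adjusted p = 5.45e-05), fell with VE-821 (-0.76, SE 0.20, adjusted p = 0.0192) and lay in between with both (0.61, adjusted p = 0.0206), where the rise over DMSO was not called with median scaling (0.34). The fall with VE-821 was not called without DMSO replicate 1 (-0.66) or VE-821 replicate 2 (-0.43), nor the rise with both without DMSO replicate 2 (0.51) or combination replicate 1 (0.39). The combination arrays were below the RVX2135 arrays by 1.27 (adjusted p = 0.000283) and above those of VE-821 by 1.36. Of the 3 H3c7 probes, this was the 1 that passed the detection filter.

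H2B rose in all 12 tested probes with each treatment, by a median of 1.56 with RVX2135, 2.09 with VE-821 and 3.70 with both. H2bc8, whose promoter is printed above, measured 5.04 and 4.74 with DMSO, 6.79 and 6.72 with RVX2135, 6.80 and 7.20 with VE-821, and 9.84 and 9.55 with both. Its single-drug groups lay side by side, with a difference that was not called (0.25, SE 0.16, limma adjusted p = 0.279), and the combination exceeded DMSO by 4.81 (SE 0.16, adjusted p = 1.02e-09), or 28.0-fold. H2bc3 measured 5.22 and 5.15, 6.01 and 6.23, 6.80 and 6.80, and 9.21 and 9.27 with DMSO, RVX2135, VE-821 and both. H2bc3 was higher with VE-821 than with RVX2135 by 0.68 (SE 0.11, limma adjusted p = 0.00106), as were 7 of the 12 H2B probes.

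The 2 probes of H2bc18 responded differently. Probe ILMN_2817214 measured 5.44 and 5.70 with DMSO, 6.94 and 6.94 with RVX2135, 7.15 and 6.87 with VE-821, and 9.69 and 9.61 with both. Probe ILMN_1231066 measured 7.98 and 8.12, 10.02 and 10.02, 8.60 and 8.70, and 9.06 and 9.05 in that order. The former was highest with both drugs (4.08 above DMSO), and the latter was highest with RVX2135 (1.97, SE 0.10, limma adjusted p = 3.92e-07) and 1.00 above DMSO with both. The probes of H2bc4 rose by 3.71 and 2.51 with both drugs, so H2bc4, H2bc18 and H3c14 are the genes for which the size of change depends on the probe by over 1.

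H1, the linker histone, rose in all 3 tested probes with each treatment. H1f2 measured 9.55 and 9.90 with DMSO, 12.24 and 12.11 with RVX2135, 11.86 and 11.92 with VE-821, and 12.98 and 12.86 with both. H1f1 measured 4.64 and 4.93 with DMSO, where it was detected on 1 of 2 arrays, then 6.15 and 6.15, 6.32 and 6.32, and 9.12 and 9.07. H1f5 measured 4.95 and 5.28, 5.75 and 5.77, 6.12 and 6.25, and 8.04 and 8.17 in the order of groups. H1f2 had most of its rise with either drug alone, by 2.45 with RVX2135 (SE 0.13, limma adjusted p = 3.61e-07) and 2.16 with VE-821. It rose by 3.19 with both drugs. H1f1 and H1f5 gained most when the drugs were combined, with rises over DMSO of 4.31 (SE 0.12) and 2.99 (SE 0.13). H1f3 and H1f4 did not pass the detection filter.

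H2A split into members that rose and members that did not. With both drugs 4 of 13 probes rose and 3 fell, the other 6 had no call, and the class median was 0.03. H2ac18 measured 4.82 and 4.58 with DMSO, where it was detected on 1 of 2 arrays, 6.80 and 6.45 with RVX2135, 6.16 and 5.83 with VE-821, and 8.68 and 8.47 with both. H2ac4 measured 6.24 and 6.47, 6.82 and 6.73, 7.00 and 6.71, and 9.12 and 9.15. H2ac8 measured 7.54 and 7.49, 9.0 and 8.92, 8.41 and 8.40, and 10.19 and 9.88. The combination arrays were the highest for all 3 of these genes, which rose by 3.88, 2.78 and 2.52 over DMSO (SE 0.16, 0.13 and 0.12). H2ac6, the other riser, gained 1.58 with RVX2135 (SE 0.19, limma adjusted p = 0.000108), showed a difference of -0.00 with VE-821 that was not called, and gained 1.08 with both.

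H2ac15, the lowest of the class, measured 13.64 and 13.69 with DMSO, 13.26 and 13.33 with RVX2135, 13.42 and 13.39 with VE-821, and 13.30 and 13.24 with both. Its fall with both drugs (log2 change -0.39, SE 0.10, limma adjusted p = 0.00527) was not called under median scaling (-0.23, adjusted p = 0.168). H2ac12 and H2ac7 were also called lower (-0.35 and -0.34), but neither was called with median scaling (-0.21 and -0.18) or with the authors' normalized values (-0.25 and -0.25). H2ac10, H2ac11, H2ac20, H2ac21, H2ac22 and H2ac24 were not called, with changes from -0.23 to 0.22. The 7 probes of H2ac7, H2ac10, H2ac12, H2ac15, H2ac20, H2ac22 and H2ac24 were among the 100 brightest of the 25697 probes on all 8 arrays, and H2ac24 was the brightest on 1 array. The part of this position near the top of the signal range in the level values was not tested. H2ac11 and H2ac21, at ranks from 385 to 953, were not called with both drugs against DMSO. H2ac21 was called higher with both drugs than with each single drug, and H2ac11 higher than with RVX2135. The 7 bright probes had no call in either of these comparisons. Members among the 100 brightest probes numbered 7 to 9 per array in the other groups and 13 on each array with both drugs.

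Some H2A and H2B genes are neighbours that start in opposite directions from a shared stretch of DNA. Among the matched promoters there were 5 such pairs of replication-dependent genes on chromosome 13, with 163 to 248 bases between the RefSeq starts. With both drugs the H2B gene rose in 5 of 5 pairs, and the H2A gene rose in 1, was called lower in 3 and was not called in 1. None of the 3 lower calls (H2ac7, H2ac12 and H2ac15) was made with median scaling (-0.18, -0.21 and -0.23). H2ac7 and H2ac12 were also not called with the authors' normalized values. The printed 150 bases are a part of the shared stretch, which has 173 bases for H2bc7 and 179 for H2bc8. In the pair printed in part under H2bc7, H2bc7 rose by 3.64 and H2ac7 had a change of -0.34. In the pair printed in part under H2bc8, H2bc8 rose by 4.81 and H2ac8 by 2.52, and both genes rose with each single drug. H2bc11, H2bc12 and H2bc15 rose by 3.67, 3.34 and 3.72, beside changes of 0.01, -0.35 and -0.39 for H2ac11, H2ac12 and H2ac15. H2ac7, H2ac12 and H2ac15 are among the 7 brightest H2A probes, and H2ac8 and H2ac11 are not. The difference of change within a pair was not itself tested.

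**Figure D3:**
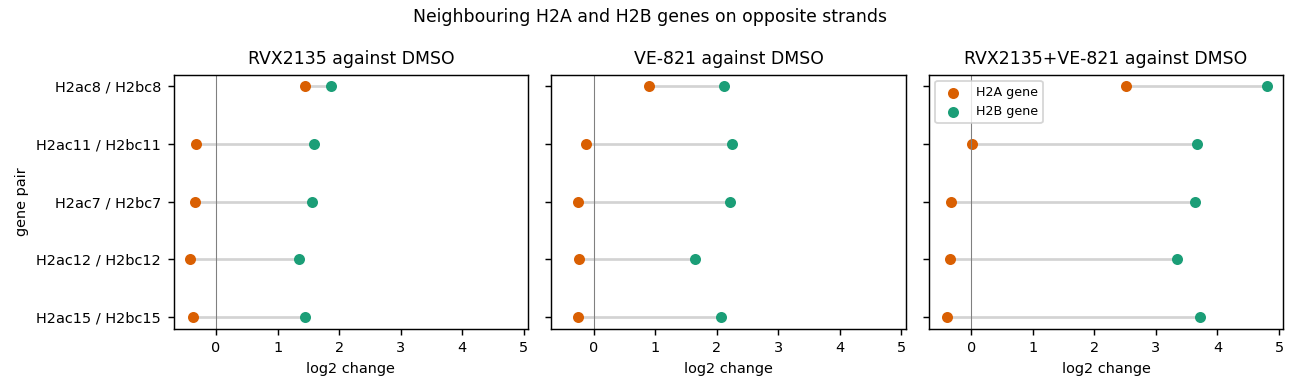
Log2 change against DMSO for 5 pairs of neighbouring H2A and H2B genes on opposite strands. Orange points are the H2A gene and green points the H2B gene of a pair, joined by a grey line. The green point lies right of the orange point in every pair and treatment, and H2ac8 is the H2A gene that rose with its partner.

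The replacement variants did not move as a group. With both drugs 3 of 8 probes rose, 4 fell and 1 was not called. H3f3b, one of the genes for replacement H3, measured 11.81 and 11.78 with DMSO, 12.73 and 12.77 with RVX2135, 12.17 and 12.25 with VE-821, and 12.95 and 12.98 with both. The brighter probe of H3f3a, which encodes the same protein, measured 11.72 and 11.69, 11.96 and 12.01, 11.32 and 11.25, and 11.32 and 11.34. H3f3b rose with each treatment (0.96, 0.42 and 1.17, the last with SE 0.10 and limma adjusted p = 1.58e-06). H3f3a was lower with VE-821 (-0.42, adjusted p = 0.0119) and with both drugs (-0.37, adjusted p = 0.00695). Its dimmer probe measured 5.77 and 5.97, 6.10 and 6.32, 5.34 and 5.22, and 5.46 and 5.49 and fell in the same comparisons (-0.59 and -0.39). With VE-821, neither H3f3a probe nor H3f3b was called without DMSO replicate 2 (-0.48, -0.44 and 0.40) or VE-821 replicate 2 (-0.53, -0.39 and 0.37), the brighter H3f3a probe and H3f3b were not called without DMSO replicate 1 (-0.41 and 0.44), and H3f3b was not called with median scaling (0.28). With both drugs the dimmer H3f3a probe was not called without DMSO replicate 2 (-0.29) or combination replicate 1 (-0.38).

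Among the H2A variants, Macroh2a1, which carries a large macrodomain and is known from silent chromatin, measured 10.58 and 10.45 with DMSO, 10.06 and 9.99 with RVX2135, 10.08 and 10.01 with VE-821, and 9.24 and 9.28 with both. It fell with each drug and further with both, by 1.26 on the log2 scale (log2 change -1.26, SE 0.10, limma adjusted p = 1.20e-06). Its fall with VE-821 (-0.47) was not called without DMSO replicate 1 (-0.41) or VE-821 replicate 2 (-0.43). H2az1, the gene of the variant H2A.Z found near promoters, measured 12.81 and 12.91, 12.81 and 13.06, 12.80 and 12.67, and 12.38 and 12.38. H2az1 was lower with both drugs (-0.48, SE 0.12, adjusted p = 0.00389) and was not called with either drug alone. H2ax, the variant phosphorylated at DNA breaks, measured 9.84 and 9.85, 9.99 and 9.92, 9.72 and 9.58, and 10.09 and 9.75, and was not called in any of the 7 comparisons.

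H1f10, a linker variant, followed RVX2135. Its probe ILMN_3122845 measured 7.01 and 7.27 with DMSO, 9.16 and 9.14 with RVX2135, 7.21 and 7.14 with VE-821, and 8.40 and 8.14 with both, and probe ILMN_1247646 measured 6.07 and 6.30, 8.10 and 7.93, 6.13 and 6.22, and 7.40 and 6.98. The rise with RVX2135 was 2.01 and 1.83 (limma adjusted p = 1.69e-06 and 7.33e-06), the VE-821 arrays lay within 0.04 of DMSO on average, and with both drugs the rise was 1.13 and 1.01. Both probes were lower with both drugs than with RVX2135 alone, by 0.88 and 0.82 (log2 changes -0.88 and -0.82, adjusted p = 0.000159 and 0.000653).

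The germ cell variants H2ac1 and H2bc1 were detected on both combination arrays and on no DMSO or VE-821 array, and with RVX2135 H2ac1 was detected on 1 of 2 arrays and H2bc1 on none. Their levels with both drugs, 5.36 and 5.25 for H2ac1 and 5.21 and 4.77 for H2bc1, were at least 1.56-fold and at least 1.25-fold higher than DMSO, with no test, since both passed the detection filter only through the combination. Each fold is a lower bound, the mean with both drugs over a DMSO mean in which the lowest signal of any detected probe of an array stood in for the probe wherever that was the larger value. These 2 genes, too, are neighbours on opposite strands. H1f6, H1f7 and H1f8 did not pass the detection filter.

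The single drugs were compared directly. With VE-821 against RVX2135, 14 of the 58 probes were higher and 16 lower, against 11.9% and 12.5% of all tested probes. Median scaling gave 16 and 14 of the histone probes, and 1310 higher and 797 lower over all. H2B and H4 leaned to VE-821, with 7 of 12 and 5 of 10 probes higher, of which 6 and 0 were called under every alternative tried, and H3 and the replacement variants leaned to RVX2135, with 7 of 10 and 5 of 8 probes lower, of which 5 and 5 were. H4c18 (0.41) and H4c11 (0.40) were called with neither the authors' normalized values (0.42 and 0.37) nor any array of the single drugs left out, and H4c12 (0.50) was not called without RVX2135 replicate 1 (0.42) or VE-821 replicate 2 (0.38). H3c7 showed the largest difference (-2.64, SE 0.20, limma adjusted p = 3.97e-06), followed by H1f10 (-1.97 and -1.84), H2ac6 (-1.59), H2bc18 probe ILMN_1231066 (-1.38) and H3c10 (-0.96). H2bc4 probe ILMN_1242399 leaned most to VE-821 (0.82, adjusted p = 0.00259). H3c3 and H3c10 rose with RVX2135 (0.68 and 0.97) and were not called with VE-821 (-0.23 and 0.01).

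**Figure D4:**
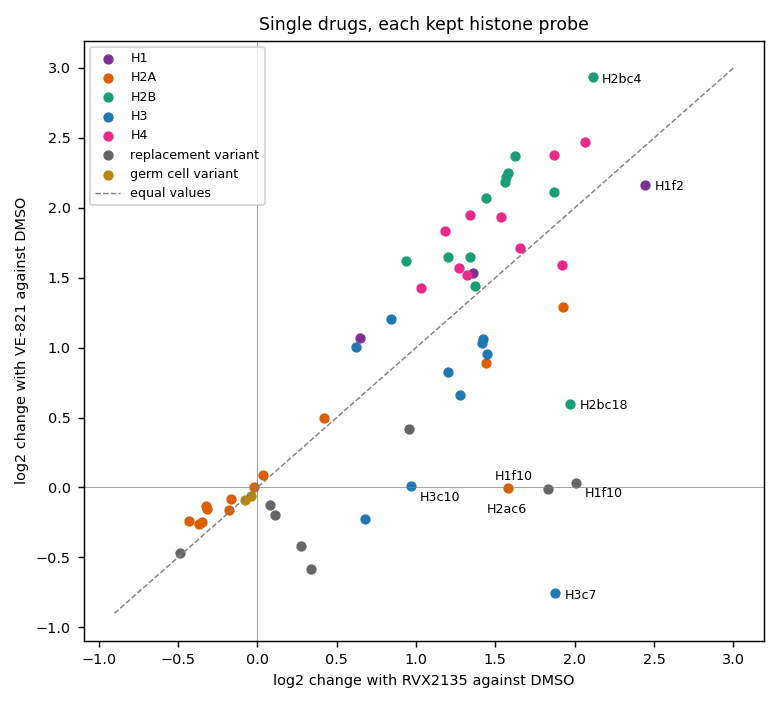
Log2 change with VE-821 against DMSO (vertical axis) plotted against that with RVX2135 (horizontal axis) for each tested histone probe, coloured by class. The dashed line marks equal values. H3c7, H1f10, H2ac6, H3c10 and 1 probe of H2bc18 lie far to the right of the line, and H2bc4 lies above it. Both axes share the DMSO arrays, so no correlation is read from the plot.

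Adding the other drug raised most histone signals further. The combination exceeded RVX2135 alone in 40 probes and was lower in 9 (median 1.45), against 24.1% higher and 25.1% lower over all probes (40 and 9 with median scaling, with 1907 and 3087 over all). It exceeded VE-821 alone in 45 and was lower in 2 (median 1.48), against 24.5% and 24.3% (43 and 2 with median scaling, with 1576 and 3426 over all). H2ac1 and H2bc1 passed the detection filter only through the combination. Without them the combination exceeded RVX2135 in 38 of 56 probes (median 1.734) and VE-821 in 43 (median 1.498). In 39 of the 58 probes, or 37 of 56 without H2ac1 and H2bc1, it was called above each single drug, among them all 10 H4 and all 3 H1 probes, 11 of 12 H2B and 9 of 10 H3 probes. Over all tested probes this joint share was not counted, but it cannot exceed the 24.1% called above RVX2135. The probes called below RVX2135 and above VE-821 were H2ac6, H3c7, H2bc18 probe ILMN_1231066 and both probes of H1f10. Macroh2a1 and H2az1 were called below each single drug, although the H2az1 difference from VE-821 (-0.36) was not called without VE-821 replicate 1 (-0.29) or either combination array (both -0.35). That of the H2bc18 probe from VE-821 (0.40) was not called without VE-821 replicate 1 (0.35) or with median scaling (0.22).

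The interaction is the log2 change with both drugs minus the sum of the single-drug changes. On the values used, which include an offset added before the log2 transform, it is 0 where the single-drug fold changes multiply. It is above 0 where the combination exceeds their product. The offset shrinks changes of probes dim with DMSO and can push their interaction above 0 even where the fold changes without it multiply. The interaction was called above 0 for 26 of the 58 probes and below 0 for 5, with a median of 0.33. Over all tested probes 12.1% were higher and 13.3% lower. Without H2ac1 and H2bc1 it was above 0 for 24 of 56. Of the 31 calls, 22 were made under every alternative tried. None of these alternatives changed the offset, so they do not test its part in the interaction. All 10 H4 probes had a positive interaction (median 0.83, range 0.59 to 1.62). Of these, 6 were called under every alternative, and H4c6, H4c14, H4c9 and H4c3 were not called when any of 6, 4, 3 and 2 arrays was left out. In H3, 6 of 10 probes had a positive interaction (median 0.88), and all 6 were called under every alternative. In H2B, 3 of 12 were higher and 2 lower, of which H2bc8 (0.82) was not called with median scaling (0.72) or when any of 4 arrays was left out, with a median of -0.05, and the other 7 had no call. The largest interactions were those of H3c14 probe ILMN_3040069 (2.03, SE 0.16, limma adjusted p = 1.89e-05, where the other H3c14 probe gave 0.13 and was not called), H2ac4 (1.86, SE 0.18) and H4c2 (1.62, SE 0.24). The lowest were those of H2bc18 probe ILMN_1231066 (-1.57, SE 0.15, adjusted p = 5.05e-05), H1f2 (-1.41, SE 0.18) and H2bc4 probe ILMN_1242399 (-1.34, SE 0.22, where the other H2bc4 probe gave -0.34 and was not called).

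**Figure D5:**
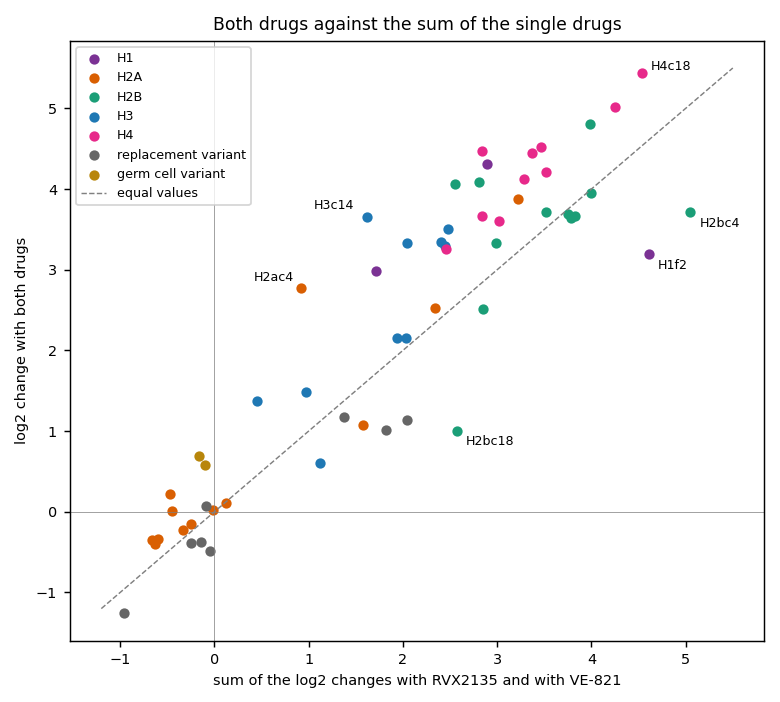
Log2 change with both drugs against DMSO (vertical axis) plotted against the sum of the single-drug changes (horizontal axis) for each tested histone probe, coloured by class. The dashed line marks equal values, and the height above it is the interaction. The 10 H4 points lie above the line, and H1f2, 1 probe of H2bc4 and 1 probe of H2bc18 lie well below it.

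Genes of DNA replication mostly fell where histone genes rose, and lists of histone chaperones and of histone mRNA factors moved both ways. Of 38 tested genes of DNA replication, 33 fell and 2 rose with both drugs (median -0.66), 32 fell and 0 rose with RVX2135 (median -0.61, with 0 higher also at an unadjusted limma p under 0.05), and 18 fell and 1 rose with VE-821 (median -0.33). Over all tested probes 29.9%, 14.2% and 10.8% fell in these comparisons. Thymidine kinase Tk1 measured 10.08 and 10.17 with DMSO, 9.32 and 9.32 with RVX2135, 9.16 and 8.84 with VE-821, and 7.46 and 7.58 with both. It fell by 2.60 on the log2 scale (log2 change -2.60, SE 0.12, limma adjusted p = 1.34e-08), with no overlap between DMSO and any treatment. Uhrf1, which guides maintenance of DNA methylation, the uracil glycosylase Ung and the ribonucleotide reductase subunit Rrm1 changed by -1.64, -1.49 and -1.31. Of 24 tested histone chaperones and deposition genes 12 fell and 2 rose with both drugs (median -0.24), against 29.9% lower and 28.6% higher over all tested probes. Anp32e, a chaperone of H2A.Z, changed by -1.68, and Mms22l, which acts at stalled forks, by -1.52. Chaf1b, a subunit of the CAF-1 complex that deposits H3 and H4 on new DNA, changed by -1.42, and Hira, which deposits replacement H3, by -0.81.

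Of 23 tested genes of histone transcription and mRNA processing, 9 rose and 6 fell with both drugs (median 0.07), against 28.6% and 29.9% of all tested probes. Pou2af1, a B cell coactivator of octamer-binding factors, measured 11.41 and 11.29 with DMSO, 11.19 and 11.09 with RVX2135, 10.80 and 10.75 with VE-821, and 8.44 and 8.70 with both, a change of -2.78 (SE 0.12, limma adjusted p = 5.62e-09). Tut7, a terminal uridylyl transferase, rose by 1.38, and Ncbp2, a subunit of the cap-binding complex, changed by -1.35. Hinfp, a factor that binds H4 promoters, was not above background with DMSO and was at least 2.23-fold higher with both drugs (adjusted p = 2.42e-05). These 3 lists were chosen with earlier results of these data known.

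Readouts of the drug targets gave the following values. Of the 5 tested genes, 3 were called higher and 1 lower with RVX2135, against 14.0% and 14.2% of all tested probes. With VE-821 these counts were 0 and 1 (10.4% and 10.8% over all), and with both drugs 2 and 2 (28.6% and 29.9%). Hexim1, known to rise with BET inhibitors, rose with RVX2135 (1.23, limma adjusted p = 1.84e-05) and was below DMSO with VE-821 (-0.48, adjusted p = 0.0100) and with both drugs (-0.51, adjusted p = 0.00193). Brd2, a BET gene, rose with RVX2135 (0.65) and with both (1.45, adjusted p = 5.93e-07). Chek1, the kinase that ATR activates, was lower with RVX2135 (-0.90) and with both (-0.91, adjusted p = 3.78e-05). Myc was higher with both drugs by 0.58 (adjusted p = 0.00121), and Atrip, the partner of ATR, was not called (0.20, adjusted p = 0.142).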

How the data were processed

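The main values were linear intensities that the authors deposited without normalization, in which background had been subtracted (lowest value -14.06). The authors deposited a detection p-value beside each intensity, and a second table of normalized intensities. The submitters' processing notes name GenomeStudio. Biotin labelling is stated per the labels' protocols. How RNA was primed, how detection was computed and how the authors normalized are not given in the sources.

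With limma 3.58.1 (R 4.3.3), neqc used the detection p-values for background correction, an offset of 16, quantile normalization and a log2 transform. A probe passed if detected (p-value under 0.05) on every array of any group, which left 11761, and each was fitted with lmFit and eBayes, with 1 mean per group over 8 arrays (4 residual degrees of freedom). Benjamini-Hochberg adjustment ran within each of 7 comparisons. The fit was tested on simulated data. The number of arrays limits the precision. Probes were named through the platform annotation and current symbols. Replicate numbers are shared between groups, and same-numbered arrays deviated with correlations from -0.02 to 0.17, so they were not treated as pairs.

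Members and lists were chosen with earlier results of these data known. By the naming rule, array values are given for the 3 highest and the 1 lowest member of each class with both drugs and for the replacement variants, and up to 4 genes per list with the smallest adjusted p are named. Genes whose probes differ by over 1 are named too, and other members were named after their values were seen. Alternatives were the authors' normalized values, no background correction, median scaling, other detection filters, 1 probe per gene, an intensity trend, the replicate block and leaving out each array.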

Additional observations from a re-analysis of the deposited data

Results flagged for a closer look

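The effect of one drug on a histone gene was set against its effect in the presence of the other, and 31 of the 58 tested probes differed by the interaction test, 26 upward and 5 downward (limma, adjusted over all tested probes at 0.05). The values include the offset of 16, which shrinks changes of probes dim with DMSO and can push their interaction above 0. In H4 the interactions were 1.62 for H4c2, 1.08 for H4c8, 1.05 for H4c11, 0.90 for H4c18, 0.84 for H4c9, 0.82 for H4c4, 0.81 for H4c14, 0.77 for H4c12, 0.70 for H4c3 and 0.59 for H4c6. In H3 they were 2.03 for 1 of the 2 H3c14 probes (0.13, not called, for the other), 1.29 for H3c8, 1.03 for H3c1, 0.94 for H3c4, 0.92 for H3c3 and 0.84 for H3c6. In H2B they were 1.5 for H2bc3, 1.27 and -1.57 for the probes of H2bc18, 0.82 for H2bc8 and -1.34 for 1 of the 2 H2bc4 probes (-0.34, not called, for the other). In H2A they were 1.86 for H2ac4, 0.69 for H2ac21 and 0.66 for H2ac18, and in H1 they were 1.41 for H1f1, 1.27 for H1f5 and -1.41 for H1f2. The linker variant H1f10 gave -0.82 and -0.91 from its probes, the former not called without DMSO replicate 1 (-0.70) or RVX2135 replicate 1 (-0.73). The H2ac18 call was lost under 9 of 15 alternatives, with values of 0.47 to 0.75 in those, among them the authors' normalized values (0.54), median scaling (0.52) and 5 arrays left out one at a time. The H2bc8 call was lost under 6 of 16 (0.63 to 0.82), that of H4c6 under 8 (0.39 to 0.62), H4c14 under 5 (0.59 to 0.81), H4c9 under 4 (0.59 to 0.84), H2ac21 under 3 (0.53 to 0.65) and H4c3 under 2 (0.60 to 0.63). The germ cell variants H2ac1 and H2bc1 gave 0.86 and 0.68, but they passed the detection filter only through the combination, so these values are a description, and 24 of the upward calls remain without them.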

How the results depend on the processing

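The counts of histone probes called in the 7 comparisons were recomputed under 16 alternatives, and 210 of these counts stayed within 1.5 times the reported value while 14 did not. No change of a named probe reversed its direction while called, and 89 named calls were lost and 28 gained over all alternatives. With an intensity trend in eBayes, 7 probes fell with RVX2135 and 7 with VE-821, where 4 and 4 are reported. Median scaling left 4 falls with both drugs in place of 7. It also moved the median of all probes by -0.12 (RVX2135), -0.19 (both drugs) and -0.13 (both drugs against VE-821), and the histone medians against DMSO were then 1.13, 0.82 and 2.65. All probes called higher fell to 794, 792 and 2044 in the DMSO comparisons (1643, 1227 and 3368 reported), to 1576 against VE-821 (2876 reported) and to 870 for the interaction (1420 reported), and those lower for VE-821 against RVX2135 to 797 (1470 reported). Without single arrays, falls ranged from 1 to 4 with RVX2135 (1 without RVX2135 replicate 1, 2 without DMSO replicate 2) and from 0 to 4 with VE-821 (0 without VE-821 replicate 2, where limma gave 4 falls at an unadjusted p under 0.05, and 1 and 2 without DMSO replicate 1 and 2). Falls with both drugs ranged from 4 (without DMSO replicate 2) to 7, and those of the combination against VE-821 from 1 (without VE-821 replicate 1 or either combination array) to 2. Probes higher with VE-821 than RVX2135 ranged from 8 (without RVX2135 replicate 1 or VE-821 replicate 2) to 14. Over all probes, leaving out an array lowered the calls with RVX2135 to as few as 912 higher (DMSO replicate 1) and 961 lower (RVX2135 replicate 2), those with VE-821 to 632 and 535 (VE-821 replicate 2), and those between the drugs to 889 and 878 (RVX2135 replicate 2). The cause was not tested. Rises over DMSO stayed between 41 and 42 (RVX2135), 34 and 36 (VE-821), and 42 and 44 (both drugs) in these runs. With the replicate number as a block, the counts were 42 higher and 4 lower with RVX2135, 36 and 4 with VE-821, 44 and 7 with both drugs, 40 and 9 and 45 and 2 for the combination against RVX2135 and VE-821, 15 and 16 for VE-821 against RVX2135, and 26 and 5 for the interaction. Leaving out H2ac1 and H2bc1, chosen after seeing the data, kept the histone counts within 1.5 times.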
